A study of Mus musculus with 16 samples.

Results

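The genes described here are 10 genes of fat cells, read in islet RNA from mice in which B7-H4 (Vtcn1), a checkpoint ligand of the B7 family, was removed from or added to β cells. They were taken by symbol from the deposited tables and are 10 of the 17864 genes listed in either table. Adipoq, Retn and Lep encode the hormones adiponectin, resistin and leptin. Cfd encodes the secreted protease adipsin. Plin1, Plin4 and Cidec encode lipid droplet proteins, Lipe the hormone-sensitive lipase, Fabp4 a fatty acid carrier and Pparg the transcription factor PPARγ.

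The study sequenced RNA from isolated, handpicked islets in 16 libraries, 4 in each of 4 groups. The Flox group consisted of mice with loxP sites around exon 2 of B7-H4, kept on chow and without Cre. The cKO group carried the same floxed alleles together with Rip-Cre, a Cre recombinase driven by an insulin promoter, and was also kept on chow. Cre was present only in the cKO mice, so an effect of Cre and an effect of the deletion cannot be told apart. The remaining mice were fed a high-fat diet (HFD) from 6 weeks of age for 8 weeks, and then received an adeno-associated virus by infusion into the pancreatic duct. The Ctrl group received a control virus, and the OE group a virus of serotype AAV2/8 with B7-H4 and ZSGreen behind the rat Ins2 promoter. Islets of both HFD groups were taken 5 weeks after the infusion. The labels and the methods differ on whether the HFD mice were wild-type or carried the floxed alleles, and the age of the chow mice was not stated in the labels.

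White fat cells store triglyceride in a single large droplet and release hormones, and they lie around and between the lobules of the pancreas. Adipoq, Cfd, Retn, Lep, Plin1 and Cidec are largely restricted to fat cells in the mouse. Fabp4, Pparg and Lipe are shared with other cells: Fabp4 is made by capillary endothelium and macrophages, Pparg by macrophages and endothelium, and Lipe also by β cells and steroid-producing cells.

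Values are FPKM (fragments per kilobase of exon, relative to the mapped fragments of the library), which adjust for gene length and library depth. The 10 genes were all listed in the chow table, and 8 in the HFD table, where Cfd and Lep were not listed. The relative depth of a library, read from the size of the lowest values, was 0.942 to 1.07 of the median in the chow table and 0.84 to 1.08 in the HFD table. The number of fragments was not given, so low values are also given in steps, a step being the smallest increment of a gene's value in a library and standing for at least 1 fragment. Vtcn1, the targeted gene, was at 0.0188 to 0.216 FPKM in the Flox libraries and 0.0202 to 0.125 FPKM in the cKO libraries, so at these values it did not separate the chow groups. It was at 0.0636 to 0.371 FPKM in the Ctrl libraries and 40 to 128 FPKM in the OE libraries. Acinar genes took 6.35% to 30.6% of a library's summed FPKM in the Flox group, 31.3% to 39.9% in the cKO libraries and 9.62% to 12.6% in the OE libraries. The Ctrl libraries stood apart from each other. Acinar genes took 4.76% in Ctrl1, 48.9% in Ctrl2, 62.6% in Ctrl3 and 1.84% in Ctrl5, while β-cell genes took 55.1%, 19.1%, 4.38% and 39.4% in the same order.

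The name of the gene set was checked against its defining markers. In the cKO group 5 of the 10 genes (Adipoq, Plin1, Cfd, Retn and Lep) were listed at 0 in all 4 libraries. In the HFD table Plin1 and Retn were at 0 in all 4 Ctrl libraries and Adipoq in all 4 OE libraries. The genes largely restricted to fat cells were above 0 together in Flox20 and, for Adipoq, Plin1 and Cfd, at a lower level in Flox16. In most libraries the set therefore had no defining fat-cell marker above a few steps, and its summed FPKM came from Fabp4, Pparg and Lipe. The tables do not show where such RNA came from.

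Promoter windows were read for the genes of the set, from 250 bases before to 50 bases after the annotated start (RefSeq, GRCm38.p6). Of the 10 genes 9 matched the promoter table, with 13 windows in all; Fabp4 had no entry. C/EBP factors, which drive fat-cell formation together with PPARγ, bind TTGCNNAA-type sites, and NF-Y binds CCAAT. Both patterns were searched on both strands and did not overlap in the windows shown; each match is in capitals. The windows of Adipoq (chr16:23146286-23146585, plus strand), Plin1 (chr7:79732727-79733026, minus strand), Cidec (chr6:113434715-113435014, minus strand) and Lep (chr6:29059971-29060270, plus strand) are shown because they hold these matches and belong to genes restricted to fat cells.
Adipoq: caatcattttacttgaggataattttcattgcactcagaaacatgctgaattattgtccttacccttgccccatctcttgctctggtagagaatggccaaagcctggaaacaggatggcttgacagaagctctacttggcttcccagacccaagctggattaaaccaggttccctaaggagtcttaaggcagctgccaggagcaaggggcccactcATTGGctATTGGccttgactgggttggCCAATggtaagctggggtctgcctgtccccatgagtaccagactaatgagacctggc
Plin1: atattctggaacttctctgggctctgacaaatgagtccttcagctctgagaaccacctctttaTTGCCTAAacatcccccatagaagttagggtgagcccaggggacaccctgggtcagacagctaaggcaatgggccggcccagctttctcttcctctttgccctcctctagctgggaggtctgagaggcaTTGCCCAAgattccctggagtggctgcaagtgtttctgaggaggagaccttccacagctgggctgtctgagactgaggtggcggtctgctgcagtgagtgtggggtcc
Cidec: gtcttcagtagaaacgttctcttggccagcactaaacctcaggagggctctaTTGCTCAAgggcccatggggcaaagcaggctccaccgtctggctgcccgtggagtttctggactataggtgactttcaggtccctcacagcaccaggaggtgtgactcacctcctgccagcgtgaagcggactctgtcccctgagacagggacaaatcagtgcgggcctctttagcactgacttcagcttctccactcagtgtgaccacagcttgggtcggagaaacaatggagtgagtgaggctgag
Lep: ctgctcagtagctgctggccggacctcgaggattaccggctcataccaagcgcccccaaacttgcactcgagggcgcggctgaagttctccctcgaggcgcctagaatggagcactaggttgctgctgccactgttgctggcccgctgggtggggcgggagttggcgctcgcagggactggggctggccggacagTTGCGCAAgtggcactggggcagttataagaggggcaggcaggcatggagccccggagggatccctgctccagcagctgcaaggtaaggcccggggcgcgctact

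The Adipoq window held 3 CCAAT matches close to the start. The C/EBP-type pattern TTGCNNAA occurred at 2 places in the Plin1 window and at a single place in those of Cidec and Lep. It was present in 4 of the 13 windows, which belonged to Cidec, Lep, Plin1 and Pparg, and in 10.8% of 32851 promoter windows of the same length. CCAAT was present in 4 of the 13 windows, in those of Adipoq, Plin4 and Pparg, and in 37.4% of all windows. TATAAA was found in 1 of the 13, a Pparg window, and in 13.6% of all. The DR1 element that PPARγ binds, a direct repeat of AGGNCA spaced by 1 base, was in none of the 13 and in 0.381% of all. The windows of Cfd and Retn held neither CCAAT nor TTGCNNAA. These matches describe letters in a window and say nothing of binding.

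The hormone genes were near 0 outside a few Flox libraries. Adipoq (ENSMUSG00000022878, chr16:23146536-23158028, GRCm38) was at 0.258 FPKM in Flox16, 0 in Flox17, 1.29 in Flox20 and 0.0254 in Flox21, or 10, 0, 53 and 1 steps. It was at 0 in all 4 cKO libraries, where 3 steps, the limit that a count of 0 allows if a step is 1 fragment, amount to 0.0788 to 0.0834 FPKM. Flox17 and Flox21 lay within that limit, so only Flox16 and Flox20 were detectably above the cKO libraries. The groups overlapped, and an exact permutation test on log2(FPKM + 0.5) gave p = 0.143. Among the HFD libraries Adipoq was at 0 in each except Ctrl5, with 0.114 FPKM or 4 steps (exact permutation p = 1.0).

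Retn (chr8:3655770-3660110) was at 0.606 FPKM or 26 steps in Flox20 and at 0 in the other Flox libraries and in all cKO libraries. Among the HFD libraries it was at 0 except in OE3, with 0.0211 FPKM or 1 step. Lep (chr6:29060220-29073877), the satiety hormone of white fat, was at 0.129 FPKM in Flox20 and 0 in the other 7 chow libraries. Neither hormone separated the groups, with an exact permutation p of 1.0 for each in each comparison where it was listed.

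Cfd, which encodes adipsin, the protease that activates complement factor B, had the highest level in a single library among the genes restricted to fat cells. Cfd (chr10:79890853-79892655) was at 0.621 FPKM in Flox16, 0 in Flox17, 9.96 in Flox20 and 0.34 in Flox21, or 9, 0, 153 and 5 steps, and at 0 in all 4 cKO libraries. It passed the minimum mean of 0.5 FPKM only through Flox20, and without that library it was not tested. limma gave a log2 fold change of -1.58 (SE 0.95, adjusted p = 0.233) for cKO against Flox, and the exact permutation test p = 0.143. Because all cKO values were 0, the size of that fold change follows the pseudocount and is no bound.

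Of the lipid droplet genes, Plin1 and Cidec were near 0 outside few libraries, while Plin4, also highest in Flox20 among the chow libraries, was spread over both chow groups. Plin1 (chr7:79720218-79732903), the coat protein of the large droplet, was at 0.0997 FPKM in Flox16 and 0.329 in Flox20, or 6 and 21 steps, and at 0 in Flox17, Flox21 and all cKO libraries. Of the HFD libraries only OE1 was above 0, at 0.015 FPKM or 1 step. Cidec (chr6:113424634-113435760), which helps droplets to fuse, was at 1.92 FPKM or 112 steps in Flox20 and 0 in the other Flox libraries. Its cKO values were 0, 0, 0.0184 and 0.0195 FPKM, each non-zero value being 1 step. Cidec in the HFD table was at 0.367 FPKM or 19 steps in Ctrl1, 0 in Ctrl2, Ctrl3 and Ctrl5, and 0.0163, 0.0166, 0.0927 and 0 FPKM in OE1 to OE4. Ctrl1 was thus the highest of the HFD libraries for Cidec, while Adipoq and Plin1 were at 0 there. Exact permutation tests gave p = 0.429 for Plin1 and 1.0 for Cidec in cKO against Flox, and 1.0 for both in OE against Ctrl.

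Plin4 (chr17:56100591-56109803), a perilipin that coats small droplets, was above 0 in 15 of the 16 libraries. Its Flox values were 0.063, 0.171, 0.279 and 0.224 FPKM and its cKO values 0.00503, 0, 0.163 and 0.0678 FPKM (mean 0.184 ± 0.092 against 0.0589 ± 0.0757, SD, n = 4). Flox was 3.13-fold higher in the mean, but the groups overlapped and the exact permutation p was 0.0857. Plin4 in the HFD table was at 0.0206, 0.0859, 0.971 and 0.00533 FPKM in Ctrl1, Ctrl2, Ctrl3 and Ctrl5, and at 0.00437 to 0.0263 FPKM in the OE libraries (exact permutation p = 0.286). Its highest value in either table was therefore in Ctrl3, the library with the largest acinar share, where Adipoq, Plin1, Retn and Cidec were all at 0. The span of Plin4 overlaps that of Hdgfl2 on the opposite strand. Strand use in counting was not stated, and whether the pair shares exon reads was not tested.

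**Figure D1:**
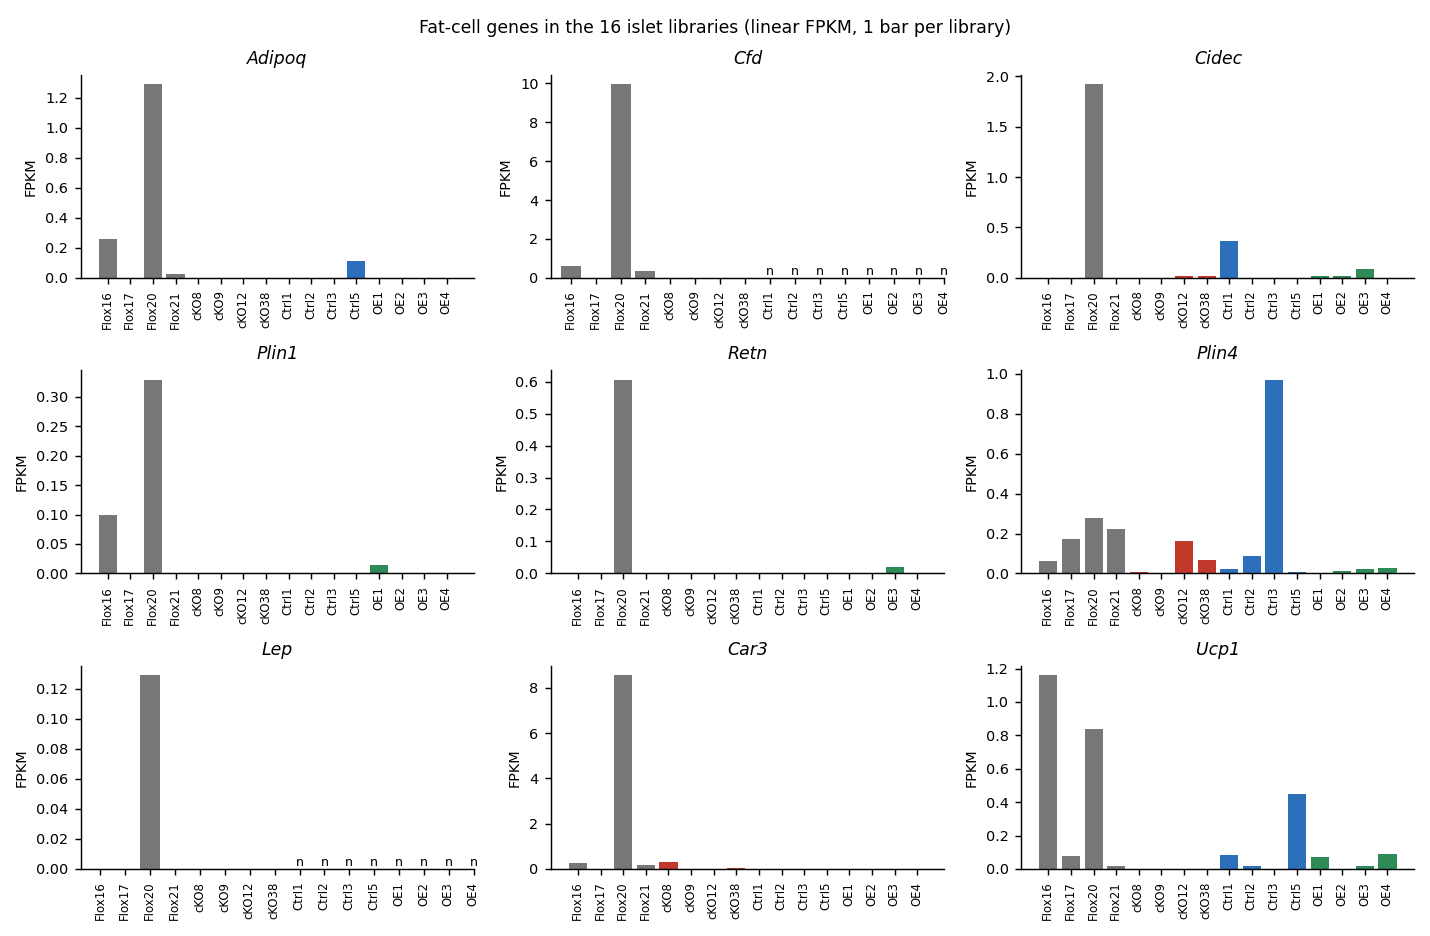
FPKM (linear axis, scaled per panel) of 7 of the 10 adipocyte genes and of Car3 and Ucp1 in each of the 16 libraries; 1 bar is 1 library, and n marks a gene not listed in that table. Adipoq, Cfd, Cidec, Plin1, Retn, Lep and Car3 are highest in Flox20, Ucp1 in Flox16 and Plin4 in Ctrl3.

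Flox20 was also set apart by genes outside the set. By a criterion chosen after the values were seen, at least 0.5 FPKM and 8 times the next of the 8 libraries, 5 genes stood out in Flox20, namely Cfd, Car3, Cyp2e1, Cidec and Retn. Car3, an abundant carbonic anhydrase of fat and muscle, was at 8.55 FPKM in Flox20 against 0.322 in the next library, cKO8, and Cyp2e1, a cytochrome of liver and fat, at 2.78 against 0.225 FPKM. The same criterion picked 0 to 25 genes in the other 15 libraries, and the single gene among them that belongs to the 10 or to the other adipocyte list was Plin4 in Ctrl3.

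Genes of brown fat were read beside the set, from a list of 8. Their summed FPKM was 4.06, 1.01, 4.38 and 2.36 in the Flox libraries and 1.24 to 1.69 in the cKO libraries, so Flox17 lay below the cKO range and the groups overlapped. Ucp1, the uncoupling protein of brown fat, was at 1.16, 0.0782, 0.84 and 0.0191 FPKM in the Flox libraries and at 0 in all 4 cKO libraries. Cox8b, a respiratory chain subunit of brown fat and heart, was at 1.05, 0, 0.496 and 0.0863 FPKM in the Flox libraries and at 0 in all 4 cKO libraries. Among the chow libraries both were highest in Flox16. Cidea, a droplet protein of brown fat, and Cox7a1, a respiratory chain subunit, were highest in Flox20 among the chow libraries, at 0.774 and 1.57 FPKM. Among the HFD libraries Cidea was highest in OE2, at 1.2 FPKM, and Ctrl5, at 1.02 FPKM. It was at 0.0582, 0.0255 and 0.141 FPKM in Ctrl1, Ctrl2 and Ctrl3, and 0.349 to 0.567 FPKM in OE1, OE3 and OE4. Ucp1 in the HFD table was highest in Ctrl5, at 0.447 FPKM, the library that also held the only non-zero Adipoq value there. Cox8b was instead highest in Ctrl3, at 1.18 FPKM, where Ucp1 was at 0. Dio2 and Elovl3 were also at 0 in all 4 cKO libraries and at most 0.0322 FPKM in the Flox libraries. The other 4 listed genes were above 0 in cKO libraries, Prdm16 at 0.343 to 0.638 FPKM, Ppara at 0.184 to 0.384, Cox7a1 at 0.521 to 0.647 and Cidea at 0 to 0.167. Prdm16 and Ppara had their highest chow values in cKO12 and cKO38. Cox7a1 was the only gene of the list that was tested, with a log2 fold change of -0.37 (limma adjusted p = 0.339, unadjusted p = 0.247).

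Fabp4, Pparg and Lipe were present in all 16 libraries and carried the comparison between groups. Fabp4 (chr3:10204088-10208576), the carrier of fatty acids in the cytosol, was at 13.1, 6.33, 22.7 and 16.6 FPKM in the Flox libraries and 7.87, 5.58, 6.52 and 6.03 FPKM in the cKO libraries. The means were 14.7 ± 6.82 and 6.5 ± 0.992 FPKM (SD, n = 4). All Flox libraries but Flox17 were above every cKO library. limma gave a log2 fold change of -0.99 (SE 0.31, 95% interval -1.68 to -0.31) with an adjusted p of 0.0535, just short of the threshold, and the exact permutation p was 0.0857.

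Pparg (chr6:115360951-115490399), the nuclear receptor that drives fat-cell formation, was at 1.96, 1.13, 3.06 and 2.94 FPKM in the Flox libraries and 1.87, 0.835, 0.89 and 1.45 FPKM in the cKO libraries. The groups overlapped through Flox17. The log2 fold change was -0.63 (SE 0.25, limma adjusted p = 0.082, exact permutation p = 0.114). Lipe (chr7:25379527-25398710), which cleaves diglyceride during lipolysis, was at 1.91, 1.14, 2.38 and 2.65 FPKM in the Flox libraries and 1.2, 1.27, 1.19 and 0.908 FPKM in the cKO libraries. Flox17 again lay among the cKO libraries. The log2 fold change was -0.58 (SE 0.21, limma adjusted p = 0.0584, exact permutation p = 0.114). The span of Gm44079 overlaps that of Pparg, and the span of 4732471J01Rik that of Lipe, on the opposite strand. Whether these pairs share exon reads was not tested either.

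In cKO against Flox 0 of the 4 genes tested were called by limma (adjusted p under 0.05 with a log2 fold change beyond 1 in either direction), and 3 of the 4 (Fabp4, Pparg and Lipe) had an unadjusted p under 0.05. Over all 11804 genes tested 1.31% were called, and 4894 had an unadjusted p under 0.05. None of the 4 genes separated the groups without overlap, beside 15.4% of all genes tested whose cKO values all lay below the Flox values. Fabp4, Pparg and Lipe had a median log2 fold change of -0.63, and of -0.51 without Flox20, beside -0.34 over all genes tested. With Cfd, which entered only through Flox20 and whose fold follows the pseudocount, the median was -0.81. When libraries were scaled by median-of-ratios factors, the median of all genes moved to 0, and Fabp4, Pparg and Lipe were at -0.63, -0.33 and -0.29 (limma adjusted p = 0.114, 0.331 and 0.197 in that order). That scaling also turned the split of all calls from 25.8% higher to 72.2% higher in cKO.

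The outcome depended on Flox17. Without Flox17, Fabp4 was called, with a log2 fold change of -1.34 (limma adjusted p = 0.00129). In that fit 4.29% of all genes were called and 60% had an adjusted p under 0.05, beside 13.8% with all libraries. With the 3 libraries per group that the study's heatmaps use, which leave out Flox17 and cKO8, Fabp4 (log2 fold change -1.42, limma adjusted p = 0.00254) and Pparg (-1.02, 0.006) were called, in a fit where 5.93% of all genes were called and 66.1% had an adjusted p under 0.05. Without Flox20, the library with the highest fat-cell markers, Fabp4 was at -0.75 (limma adjusted p = 0.109). Flox17 had the largest acinar share of the Flox libraries, 30.6%, next to the lowest of the cKO libraries, 31.3% in cKO8. With the acinar share as a covariate, the log2 fold changes of Fabp4, Pparg, Lipe and Cfd were 0.1, 0.27, 0.02 and 0.04. The shares of the chow groups did not overlap, so that fit extrapolates, and acinar content and genotype cannot be told apart. In RNA from whole islets, fewer cells of a type and less RNA per cell cannot be told apart.

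**Figure D2:**
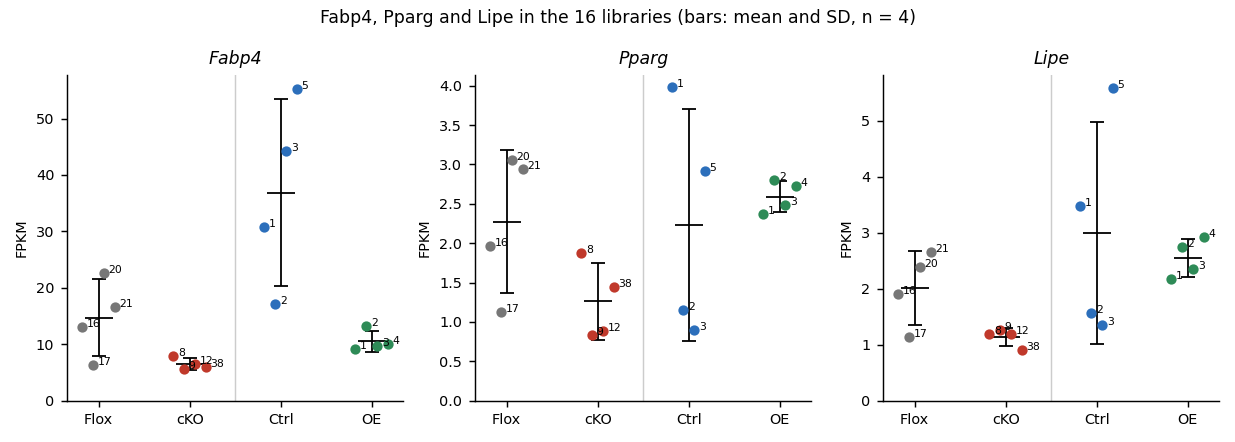
FPKM (linear axis) of Fabp4, Pparg and Lipe in the 4 groups; each point is 1 library with its number, and the bars are the mean and SD of 4 libraries. The 4 OE points of Fabp4 lie at 9.17 to 13.3 FPKM, below all 4 Ctrl points at 17.1 to 55.3 FPKM, while the chow groups overlap for all 3 genes.

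In the HFD table Fabp4 was the only one of the 8 listed genes whose groups did not overlap. It was at 30.7, 17.1, 44.2 and 55.3 FPKM in Ctrl1, Ctrl2, Ctrl3 and Ctrl5 and at 9.17, 13.3, 9.67 and 10.1 FPKM in OE1 to OE4. Every OE value was below every Ctrl value, with means of 10.6 ± 1.86 and 36.8 ± 16.5 FPKM (SD, n = 4), or 3.49-fold higher in Ctrl. Of all 12132 genes tested 0.964% had every OE value below every Ctrl value. The exact permutation p was 0.0286, the smallest that 4 against 4 libraries can give. In the fit across all genes the log2 fold change was -1.65 (SE 0.46, 95% interval -2.61 to -0.68), and the limma adjusted p of 0.591 did not pass.

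Pparg was at 3.98, 1.15, 0.894 and 2.91 FPKM in the Ctrl libraries and 2.37, 2.8, 2.48 and 2.72 FPKM in the OE libraries. The OE libraries were close together between a high pair, Ctrl1 and Ctrl5, and a low pair, Ctrl2 and Ctrl3. The log2 fold change was 0.34 (SE 0.43, 95% interval -0.55 to 1.24, limma adjusted p = 0.676, exact permutation p = 0.429), and it was -0.07 under median-of-ratios scaling. Lipe was at 3.47, 1.56, 1.36 and 5.59 FPKM in the Ctrl libraries and 2.17, 2.74, 2.36 and 2.92 FPKM in the OE libraries, the same arrangement. Its log2 fold change was -0.03 (SE 0.44, 95% interval -0.94 to 0.88, limma adjusted p = 0.971, exact permutation p = 0.971). The interval leaves room for a change of nearly 1 on the log2 scale in either direction.

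In OE against Ctrl limma called 0 of the 3 genes tested, and 1 of the 3, Fabp4, had an unadjusted p under 0.05. Over all genes tested 0.033% were called, all of them higher in OE, and 778 had an unadjusted p under 0.05. The 3 genes had a median log2 fold change of -0.03, beside 0.44 over all genes, which median-of-ratios scaling moved to -0.01. Under that scaling Fabp4 was at -2.18 (limma adjusted p = 0.0841) and Lipe at -0.47 (0.19). With the acinar share as a covariate Fabp4 was called, at -1.79 (limma adjusted p = 0.0294), in a fit that called 252 genes (2.08%), 202 of them lower in OE.

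Since Ctrl2 and Ctrl3 stood apart, the comparison was also made without them, an alternative chosen after the data were seen. Against Ctrl1 and Ctrl5 alone, Fabp4 was called at -1.93 (SE 0.24, limma adjusted p = 0.00484), Lipe was at -0.7 (limma adjusted p = 0.0374, fold under the minimum) and Pparg at -0.34 (limma adjusted p = 0.127). In that fit 649 genes (5.27%) were called in all, 568 of them lower in OE, against 4 with all libraries. Of all genes tested 24.3% had an adjusted p under 0.05 there, and their median log2 fold change was -0.21. The log2 fold change of Fabp4 was below 0 with all libraries and without Ctrl2 and Ctrl3, whereas the sign of Pparg turned. Ctrl1 and Ctrl5 also had the highest endothelial and macrophage sums of the HFD libraries. The acinar share was not a covariate in the fit without Ctrl2 and Ctrl3.

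**Figure D3:**
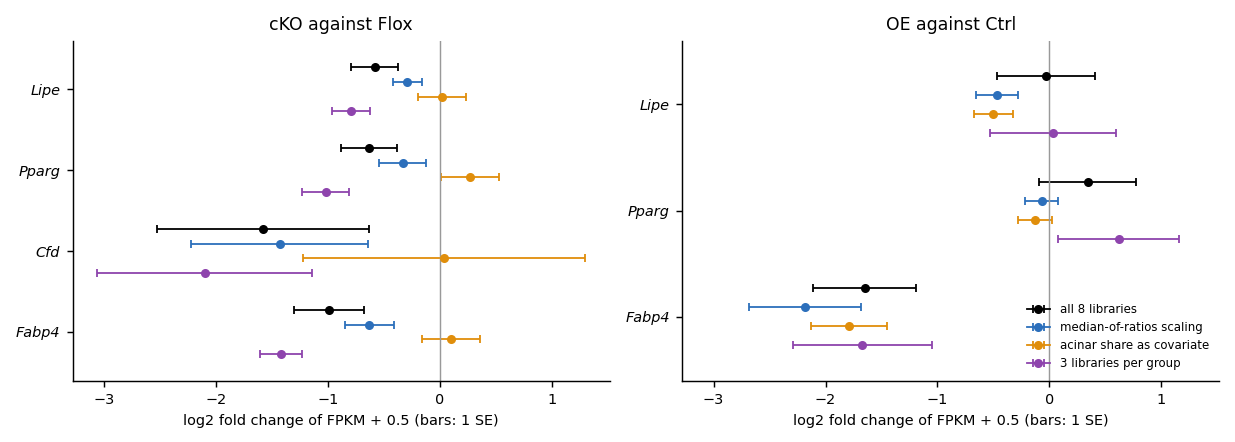
Log2 fold change of FPKM + 0.5 for each tested gene in cKO against Flox (left) and OE against Ctrl (right), with bars of 1 SE, for 4 ways of fitting. In cKO against Flox all 4 genes lie at 0.02 to 0.27 with the acinar share as a covariate, and in OE against Ctrl Fabp4 stays between -2.18 and -1.65.

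Cell types that share Fabp4, Pparg and Lipe were measured beside them. Summed FPKM of 10 endothelial markers was 103 to 186 in the Flox libraries and 78.8 to 107 in the cKO libraries. In that comparison 9 of the endothelial markers were tested, all with a negative log2 fold change, and 7 had a limma adjusted p under 0.05 without a fold over 1 (median -0.77, beside -0.34 over all genes). Over all genes tested 13.8% had an adjusted p under 0.05, and with the acinar share as a covariate 0 of all genes did, with 967 at an unadjusted p under 0.05 in limma. Macrophage markers summed to 56.8 to 124 FPKM in the Flox libraries and 62 to 83.7 FPKM in the cKO libraries, and 1 of 9 tested, Cd14, had an adjusted p under 0.05. Stromal and mesothelial markers summed to 27.9 to 42.3 FPKM in the Flox libraries and 18.1 to 21.6 FPKM in the cKO libraries. Of the 5 stromal genes tested, Dcn and Dpt, matrix genes of fibroblasts, were called lower (log2 fold changes -1.28 and -1.18, limma adjusted p = 0.0309 and 0.0159). Over all genes tested 1.31% were called. The part of these cells in the values of Fabp4, Pparg and Lipe was not tested.

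On HFD, endothelial markers summed to 465, 71.5, 93.4 and 743 FPKM in Ctrl1, Ctrl2, Ctrl3 and Ctrl5 and 206 to 260 FPKM in the OE libraries. Macrophage markers summed to 176, 68.6, 44.2 and 571 FPKM in the same Ctrl libraries and 92.9 to 116 FPKM in the OE libraries. Lipe and Pparg had the same high and low pairs of Ctrl libraries. Fabp4 did not follow them in Ctrl3, where it was at 44.2 FPKM and the endothelial and macrophage sums were below every OE library. Acinar genes took 62.6% of Ctrl3, and its median-of-ratios factor was 0.338, beside 1.19 to 1.24 in the OE libraries. None of these values was scaled by those factors, and the part of acinar content in the sums was not tested. The endothelial markers were not uniform in Ctrl3. Cldn5 and Vwf had their highest HFD values in Ctrl3, at 0.673 and 1.07 FPKM, while the other endothelial markers were below every OE library. The part of endothelial cells and macrophages in the Fabp4 values was not tested. Stromal and mesothelial markers summed to 47.2, 34, 59 and 65.9 FPKM in Ctrl1, Ctrl2, Ctrl3 and Ctrl5, the same order as Fabp4, and 33.5 to 39.6 FPKM in the OE libraries. Dcn had a log2 fold change of -1.62 (limma unadjusted p = 0.0122, adjusted p = 0.591) and was highest in Ctrl3, at 37.4 FPKM. Dpt had a log2 fold change of -1.56 (limma unadjusted p = 0.00274, adjusted p = 0.591) and was also highest in Ctrl3, at 8.3 FPKM. Of 6 stromal genes tested, 4 had a negative and 2 a positive log2 fold change. limma called 0, with 3 at an unadjusted p under 0.05 (Dcn, Dpt and Msln), beside 778 of all 12132 genes tested. Msln went the other way, with a log2 fold change of 1.22 (limma unadjusted p = 0.0312, adjusted p = 0.591). Its lowest HFD value was in Ctrl3, at 2.09 FPKM. The part of stromal cells in the Fabp4 values was not tested.

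**Figure D4:**
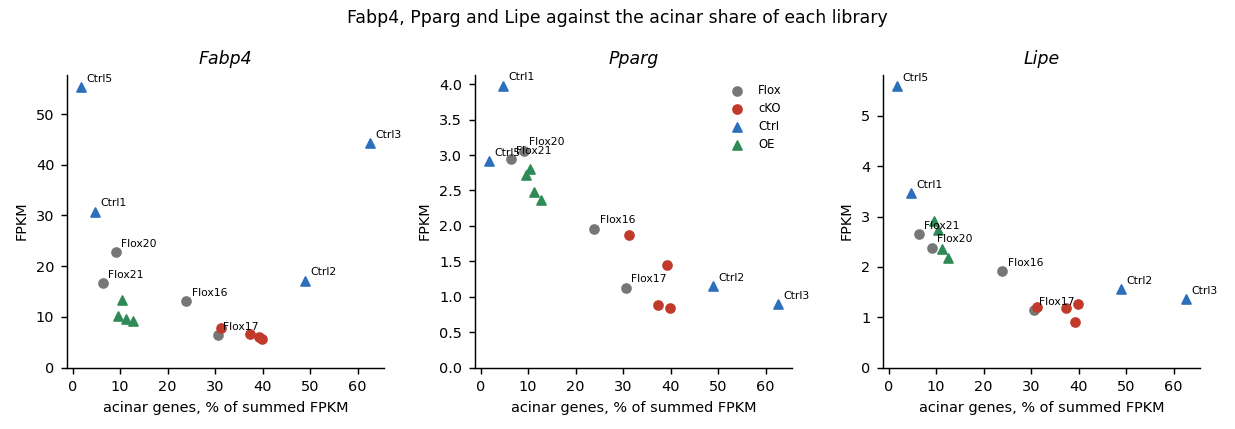
FPKM of Fabp4, Pparg and Lipe against the share of summed FPKM in acinar genes, with 1 point for each of the 16 libraries and group given by colour and shape; the tables were normalized separately. Pparg is at most 1.87 FPKM and Lipe at most 1.56 FPKM where the acinar share is 30.6% or more, while Fabp4 in Ctrl3 reaches 44.2 FPKM at a share of 62.6%.

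Across the 8 chow libraries the log2 values of Fabp4, Pparg and Lipe varied together, with a Pearson r of 0.92 for Fabp4 and Pparg, 0.94 for Fabp4 and Lipe and 0.81 for Pparg and Lipe. In the HFD table r was 0.81 for Pparg and Lipe but -0.16 for Fabp4 and Pparg and 0.28 for Fabp4 and Lipe. Adipoq and Cfd had an r of 0.99 in the chow table, and 0.88 without Flox20. Adipoq and Cidec had an r of 0.94 with Flox20 and -0.29 without it. These are descriptions over 8 libraries that share acinar content and group.

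The genes whose pattern was most like the mean log2 level of Fabp4, Pparg and Lipe were found by the lower of the Pearson correlations in the chow and HFD tables, over 8 libraries each. They were Fxyd5 (0.953), Cnn2 (0.944), Ly6a (0.944), Adcy4 (0.941), Tinagl1 (0.934), Lhfp (0.933), Gpatch4 (0.925), Lyar (0.924), Atp5mpl (0.924) and Fes (0.922). The median likeness over 11550 genes was 0.382. By the same measure Lipe had 0.855, Fabp4 0.715 and Pparg 0.563, but each of these is part of the mean it was compared with, so they cannot be set against the other genes.

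Further adipocyte genes were read from a list of 24, of which 23 were listed in each table, the missing symbol being an older name of Trarg1. In cKO against Flox 14 were tested, 6 with a positive and 8 with a negative log2 fold change, and limma called 0, with 6 at an unadjusted p under 0.05 (median -0.3). Of all 11804 genes tested 1.31% were called and 4894 had an unadjusted p under 0.05 (median -0.34). Pde3b, the phosphodiesterase through which insulin restrains lipolysis, had a log2 fold change of -0.89 (SE 0.19, limma adjusted p = 0.0162), and it is also expressed in β cells. The 6 genes with a positive value included Cebpa, a transcription factor of fat-cell formation (log2 fold change 0.51, limma adjusted p = 0.0747), Acvr1c (0.47, 0.162), Cdo1 (0.37, 0.125) and Lgals12 (0.32, 0.184). Some genes of the list below the minimum mean, named here for their values in Flox20, were highest there among the chow libraries. Others below that mean were highest elsewhere, Trarg1 and Mrap in Flox21 (0.523 and 0.168 FPKM) and Apoc1 in cKO8 (0.596 FPKM). Adig, a small adipogenesis protein, was above 0 only in Flox20 among the chow libraries, at 0.142 FPKM, but reached 0.161 FPKM in Ctrl1 and 0.181 in OE1. Pck1, which makes glycerol phosphate precursors in fat, was highest in Flox20, at 0.808 FPKM, and at 0 to 0.0126 FPKM in the cKO libraries. Adrb3, the β3-adrenergic receptor of fat, was at 0.022 FPKM in Flox16 and 0.0415 in Flox20 and at 0 in the other chow libraries. On HFD it was at 0.0484 FPKM in Ctrl5 and 0.0201 in OE2. In OE against Ctrl 15 were tested and 0 called by limma, with 0 at an unadjusted p under 0.05 (median 0.47, beside 0.44 over all genes).

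The pathways in which these genes act were counted in the same fits. In cKO against Flox 13.8% of all 11804 genes tested had an adjusted p under 0.05. Of the same genes 1.31% were called, and 4894 had an unadjusted p under 0.05. None of the calls below was kept with the acinar share as a covariate, where limma called 0 genes. Of 9 fatty acid uptake genes tested in cKO against Flox, Cd36, the fatty acid translocase, was called lower (log2 fold change -1.09, SE 0.22, limma adjusted p = 0.0147), and Lpl, Cav1 and Cavin1 had adjusted p-values of 0.0202, 0.0141 and 0.031 without a fold over 1. Of 10 synthesis genes Elovl6, a fatty acid elongase, and Lpin1, a phosphatidate phosphatase, were called lower (log2 fold changes -1.19 and -1.31, limma adjusted p = 0.0442 and 0.0253). Of 8 lipid droplet and lipolysis genes Plin2 had a log2 fold change of -0.72 (limma adjusted p = 0.0341), and 0 were called, with 4 at an unadjusted p under 0.05. Among 6 tested partners of Pparg, Cebpb had a log2 fold change of -0.72 (limma adjusted p = 0.0408), and 0 were called, with 3 at an unadjusted p under 0.05. Among 3 adipokine receptors Cap1, a receptor of resistin, had a log2 fold change of -0.54 (limma adjusted p = 0.0442), and 0 were called, with 2 at an unadjusted p under 0.05. The medians of these lists were -0.36, -0.59, -0.26, -0.64 and -0.51 in that order, beside -0.34 over all genes. In OE against Ctrl limma called 0 genes in each of these 5 lists, with 1, 2, 2, 2 and 0 genes at an unadjusted p under 0.05 and medians of -0.3, 0.64, 0.15, 0.73 and 0.58 in the same order, beside 0.44 over all genes. Of all 12132 genes tested there, 0.033% were called and 778 had an unadjusted p under 0.05.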

How the data were processed

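The authors deposited FPKM values for 16 islet RNA libraries, in a table of the Flox and cKO libraries (17361 genes) and a table of the Ctrl and OE libraries (17318 genes). The processing notes name mm10; aligner, counter, annotation and strand use are not given in the sources used here. Depth in fragments is unknown. Relative depth was read from the steps of 3254 low genes (tolerance 0.05 of a step). Labels do not tie libraries to separate mice, so p-values measure the spread between these samples.

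Genes that averaged 0.5 FPKM or more in the 8 libraries of their table were tested on log2(FPKM + 0.5) with limma 3.58.1 in R 4.3.3 (trend and robust fitting, two-sided, Benjamini-Hochberg over all genes tested). The exact permutation test was two-sided over 70 regroupings. Fold changes understate low genes on this scale. The tables were normalized separately, so no test crossed them. The procedure was tested on simulated data. Alternatives changed the pseudocount (1, 0.1), filter, scaling, acinar covariate, variance model, replicate block, fold minimum and libraries.

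The 10 genes and all lists were chosen with earlier results of these data known. Named genes are the 10, list genes that were called or lay at an end of their list, and the 10 most alike. Genes named after their values were seen are Cyp2e1 and those given for high or zero values in Flox20, Flox21 or cKO. List genes with an adjusted p under 0.05 alone were also named after seeing values. Gene positions are from GENCODE M21 (GRCm38).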

Additional observations from a re-analysis of the deposited data

Results flagged for a closer look

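Within groups of 4 libraries, a gene was singled out where the gap between an end library and its neighbour exceeded Dixon's critical share of the group's range (95% level), which chance gives in about 1 in 20 groups of continuous values. Of 28 groups checked 9 met this. In 7 of the 9 the other 3 libraries were at 0, so that the criterion was met by construction and the rate of 1 in 20 does not apply. Flox20 was the high library for Cfd (9.96 FPKM), Cidec (1.92 FPKM), Retn (0.606 FPKM) and Lep (0.129 FPKM). In the Ctrl group Plin4 was high in Ctrl3 (0.971 FPKM), Cidec in Ctrl1 (0.367 FPKM) and Adipoq in Ctrl5 (0.114 FPKM), each in a different library. In the OE group Plin1 in OE1 (0.015 FPKM) and Retn in OE3 (0.0211 FPKM) were the only values above 0 of their gene, each of 1 step.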

How the results depend on the processing

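In cKO against Flox 0 of the 4 tested genes were called by limma with all libraries, 2 with the 3 heatmap libraries per group and 0 to 1 when a library was left out in turn, the 1 being Fabp4 without Flox17. The median log2 fold change of -0.81 ran from -1.1 to -0.51 with a library left out, the latter without Flox20 and over 3 genes since Cfd was then not tested, and it turned to 0.07 with the acinar share as a covariate, where Fabp4 was at 0.1, Pparg at 0.27, Lipe at 0.02 and Cfd at 0.04. In OE against Ctrl 0 of the 3 were called with all libraries, 1 with the acinar covariate and 1 without Ctrl2 and Ctrl3 together, each time Fabp4, and 0 in every fit that left out a single library. The median of -0.03, which is the value of Lipe, ran from -0.28 to 0.29 with a library left out, above 0 without Ctrl1 (0.09), Ctrl5 (0.29) or OE1 (0.03); it was 0.03 with the heatmap libraries and -0.7 without Ctrl2 and Ctrl3. Pparg turned to -0.07 under median-of-ratios scaling, -0.13 with the acinar covariate and -0.34 without Ctrl2 and Ctrl3. Fabp4 in OE against Ctrl stayed below 0 under all 19 alternatives, from -2.18 to -1.41 (limma adjusted p 0.00484 to 0.889). Apart from settings named here, causes were not tested.

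The numbers of the libraries did not pair them: deviations of same-numbered libraries had r of -0.21 to 0.12 in the chow table and -0.13 to 0.1 in the HFD table. With the replicate block, 0 of the tested adipocyte genes were called in either comparison and the medians stayed at -0.81 and -0.03, while the limma adjusted p of Fabp4, Pparg and Lipe in cKO against Flox became 0.000125, 0.0291 and 0.0424. In that fit 23.2% of all genes tested had an adjusted p under 0.05, beside 13.8% without the block.

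Over all genes, 155 calls in cKO against Flox became 84 and 307 with pseudocounts of 1 and 0.1, 0 without the filter, 36 and 26 under median-of-ratios and non-acinar scaling, 0 with the acinar covariate, 272 without trend and robust fitting, 268 with the block, 699 with the heatmap libraries and 18 to 507 with a library left out. The 4 calls in OE against Ctrl became 10 without the filter, 252 with the acinar covariate and 649 without Ctrl2 and Ctrl3. Depth limits the fat-cell genes, since values of 1 to 3 steps cannot be told from 0.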
